A study of Mus musculus with 2 samples.

Results

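Among the genes that differed between control and Gata4/Gata6 mutant pancreas of mouse embryos at stage e12.5, 5 belong to the endocrine lineage: the transcription factor genes Neurog3 and Nkx2-2, the hormone genes Gcg and Pyy, and the granule gene Chga. They were chosen by symbol from the 250 genes of the authors' deposited table, which holds only genes that the authors called changed, and all 5 symbols were found, each in 1 row. They were also chosen with their direction known, so the lower values below describe the choice and are not tested. RNA was sequenced from 1 library per genotype. The control library pooled 6 pancreata, whose genotype the labels give only as control. The mutant library pooled 12 pancreata that carried Pdxcre, a Cre recombinase expressed from Pdx1 regulatory sequence in the pancreatic epithelium. These pancreata were homozygous for floxed alleles of both Gata4 and Gata6, written fl/fl for each gene in the label. The series title adds an allele written Tom to the mutant genotype, and no label describes it further. The whole pancreas was dissected in both cases, so epithelium, mesenchyme, nerve and vessel cells enter each value.

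Pancreatic endocrine cells arise from epithelial progenitors that switch on Neurog3 for a short time. NEUROG3, a basic helix-loop-helix factor that binds E-box sequences, activates genes such as Nkx2-2, Neurod1 and Insm1, and its loss in mice leaves the pancreas without islet cells. In the mouse the earliest endocrine cells, often called the first wave, appear in the young bud, and most make glucagon. Pyy is also active in these early cells. Hormones are stored in dense-core granules, of which chromogranin A, the product of Chga, is a structural protein. GATA4 and GATA6, zinc finger factors that bind sequences with a GATA core, are needed in the epithelium for the pancreas to form.

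Upstream sequences of 3 of the genes are shown. Neurog3 was the only gene with a GATA word, spelled out below, and Gcg and Chga were those with the TATA box word TATAAA. E-boxes, to which NEUROG3 and its relatives bind, were found in every gene of the set. Nkx2-2 and Pyy held no GATA word or TATAAA and are not shown. Each printed sequence runs 5′ to 3′ over the 250 bases before the transcription start in GENCODE vM1. Capitals mark the GATA word, E-boxes and TATAAA. The Neurog3 sequence lies at chr10:61595588-61595837 of mm9 on the plus strand, that of Gcg at chr2:62321708-62321957 on the minus strand, and that of Chga at chr12:103792929-103793178 on the plus strand.
Neurog3: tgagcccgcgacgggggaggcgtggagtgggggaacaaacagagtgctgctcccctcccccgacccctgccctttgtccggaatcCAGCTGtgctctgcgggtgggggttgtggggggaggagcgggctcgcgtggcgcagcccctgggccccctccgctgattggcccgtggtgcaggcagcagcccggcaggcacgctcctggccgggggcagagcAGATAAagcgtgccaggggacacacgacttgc
Gcg: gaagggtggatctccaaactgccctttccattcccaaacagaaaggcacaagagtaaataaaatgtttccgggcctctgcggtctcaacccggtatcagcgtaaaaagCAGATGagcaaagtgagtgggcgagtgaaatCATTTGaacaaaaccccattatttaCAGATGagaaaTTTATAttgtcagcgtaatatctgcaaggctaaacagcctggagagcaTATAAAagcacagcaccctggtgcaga
Chga: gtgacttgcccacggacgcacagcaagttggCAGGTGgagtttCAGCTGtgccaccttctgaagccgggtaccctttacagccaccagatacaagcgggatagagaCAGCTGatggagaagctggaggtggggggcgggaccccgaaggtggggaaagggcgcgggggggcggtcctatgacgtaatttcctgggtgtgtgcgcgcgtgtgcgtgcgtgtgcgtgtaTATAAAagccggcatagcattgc

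The letters come from the RefSeq promoter table on GRCm38.p6, and each window was placed on mm9 by its single exact match there. The search used RefSeq windows of 300 bases, 250 before and 50 after the start, on both strands. A GATA word was AGATAA or its variant ending in G (spelled AGATAG), or the same pair with T first (spelled TGATAA for one and TGATAG for the other). A GATA core with other flanking bases was not counted or marked, and such cores occur in the printed Gcg and Chga sequences. The E-box was any CANNTG. The TATA box was TATAAA, and the last word was CCAAT. No overlap between these words was removed. Of the 5 genes, only Neurog3 held a GATA word in its window, AGATAA, from 32 to 27 bases before the start. A GATA word is in 29.8% of the 32851 windows in the table. Neurog3 also held 1 E-box and 1 CCAAT word, and no TATAAA. The Gcg window held 3 E-boxes, all before the RefSeq start, and a forward TATAAA from 24 to 19 bases before it. A TATAAA on the opposite strand reads TTTATA in the printed sequence. In Chga, which also had 3 E-boxes, the TATAAA lies 5 bases after the RefSeq start. The GENCODE vM1 start of Chga is 28 bases further on, which puts the same word from 23 to 18 bases before that start. Nkx2-2 had 3 E-boxes and none of the other words. Its window is that of the RefSeq start, which lies 7841 bases inside the gene as GENCODE vM1 annotates it, so bases before the outermost annotated start were not searched. Pyy has 2 RefSeq windows, each with 1 E-box and 1 CCAAT word. At least 1 E-box is in 72.3% of all windows, TATAAA in 13.6% and CCAAT in 37.4%, so a single window with an E-box is common. The share of windows with 3 E-boxes was not counted. Matches of this kind are descriptions of the letters and not of binding. The G and C share of the Neurog3 window was 68.3%, that of the Gcg window was 47.0%, and the median over all windows was 52.7%.

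**Figure D1:**
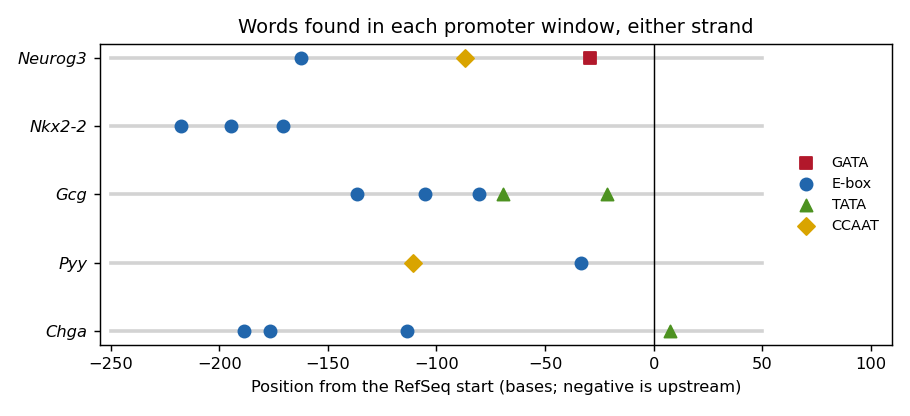
Position of each word found on either strand in the RefSeq promoter window of the 5 genes, in bases from the RefSeq start (vertical line), with the upstream side negative and the first of the 2 Pyy windows shown. The GATA word is seen in Neurog3 alone of the 5, and the TATAAA words in Gcg and Chga.

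The 2 transcription factor genes were the least abundant of the 5 in both libraries. Neurog3, which commits progenitors to the endocrine fate (table locus on mm9 chromosome 10, 61595838 to 61597511), stood at 9.06 FPKM (the authors' unit, fragments scaled by transcript length and by mapped fragments) in the control library and at 0.186 in the mutant library. The mutant level was thus 2.05% of the control level, the smallest remainder among the 5 genes. By control level Neurog3 ranked 85 of 250 genes in the table, and by mutant level 239 of 250. Its plain fold change in the authors' deposited table, −5.61 on the log2 scale, was the 4th lowest of all 250. With 1 FPKM added to each value the log2 ratio was −3.08, since the mutant value is under 1 FPKM. As in every comparison here, a library stands for its genotype without a replicate, so no value carries an error and no difference between genes can be set against a spread. In whole tissue, fewer cells of a type and less RNA per cell cannot be told apart.

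Nkx2-2, a homeodomain factor that directs endocrine cells towards the beta cell fate, measured 15.9 FPKM in control pancreas and 2.64 FPKM in mutant pancreas. That leaves 16.6% of the control level, and the log2(FPKM + 1) ratio was −2.22. The control holds 1.76 times as much Nkx2-2 as Neurog3 per unit of transcript length, and the mutant 14.2 times as much. Without replicates, and with Neurog3 under 1 FPKM in the mutant library, it cannot be said whether these quotients differ.

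The values of both factor genes have a limit in the annotation. For Nkx2-2, the table gives a locus on chromosome 2 from 147003282 to 147157417, which is 154 kb, whereas GENCODE vM1 ends the gene at 147019979. The right end of the table locus is the annotated end of Nkx2-2as, an antisense long noncoding RNA that starts inside Nkx2-2 at 147009819 on the plus strand. Exons of Nkx2-2as cover 4345 bases, of which 278 overlap exons of Nkx2-2 on the minus strand, 9.67% of the Nkx2-2 exon bases. The locus also holds 5 further annotated genes: the noncoding transcripts 6430503K07Rik and Gm14110, a 7SK copy, and the pseudogenes Gm14113 and Gm14115, with 324 to 976 exon bases each and none shared with Nkx2-2. The sources used here do not say whether reads were assigned by strand. For Neurog3, an exon of the coding gene 2010107G23Rik on the opposite strand shares 273 of the 1540 Neurog3 exon bases, or 17.7%. The part of these overlapping genes in the Nkx2-2 and Neurog3 values was not tested. No other annotated gene lies in the loci of Gcg, Pyy or Chga.

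**Figure D2:**
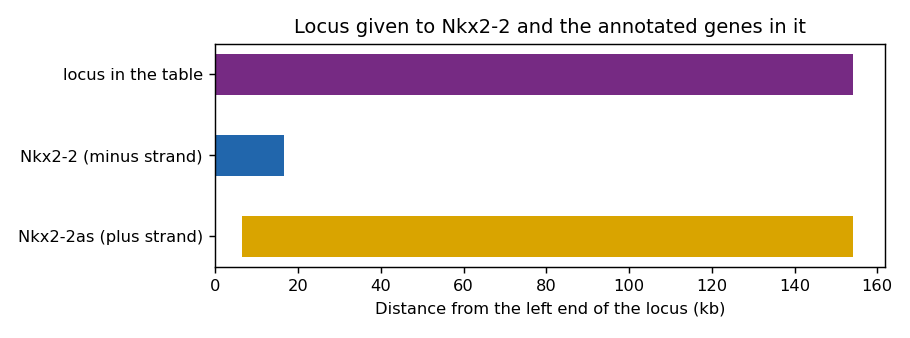
The locus that the deposited table gives to Nkx2-2, and below it the annotated extents of Nkx2-2 and of the antisense RNA Nkx2-2as, in kb from the left end of the locus. The locus of 154 kb runs over both genes, and Nkx2-2 itself takes up 16.7 kb of it; the 5 shorter annotated genes in the locus are not drawn.

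The hormone genes were the most abundant of the 5 in both libraries. Gcg encodes proglucagon, which alpha cells cut into glucagon and intestinal L cells cut into the incretin GLP-1 (chromosome 2, 62312587 to 62321710). It stood at 612 FPKM in the control, the highest value of the table in that library. In the mutant library it was 83.2 FPKM and still ranked 4 of 250. The mutant level was 13.6% of the control level, and the log2(FPKM + 1) ratio was −2.86. Thus Gcg was at once far lower and still among the most abundant genes listed for the mutant library.

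Pyy encodes peptide YY, a peptide of early islet cells and of L cells that acts on neuropeptide Y receptors (chromosome 11, 101967991 to 101969090). Its level was 121 FPKM among control genes, rank 8, and 13.7 FPKM among mutant genes, rank 67. The remainder was 11.3% and the log2(FPKM + 1) ratio −3.05. Both hormones were lower by a similar factor, 7.36-fold for Gcg and 8.83-fold for Pyy by plain FPKM, and the level of Gcg over that of Pyy was 5.05 for control and 6.06 for mutant tissue. Whether these quotients differ cannot be said either.

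Chga, whose protein helps to form the secretory granules of endocrine and neuroendocrine cells (chromosome 12, 103793179 to 103803237), measured 19.9 FPKM in control pancreas and 3.91 FPKM in mutant pancreas. It kept 19.7% of its control level, the largest remainder of the 5, with a log2(FPKM + 1) ratio of −2.09. Chga is not limited to the islet lineage, since sympathetic neurons and adrenal chromaffin cells make it too. Of 28 markers of sympathoadrenal and neural crest cells, 9 were in the table and all 9 were higher in the mutant. Their summed level was 22.4 FPKM for the control pool and 115 FPKM for the mutant pool. Among them Dbh, the enzyme that makes noradrenaline, was 1.15 FPKM in control and 8.17 FPKM in mutant pancreas, and Tubb3, a neuronal tubulin, was 6.62 and 32.8 FPKM. The part of these cells in the Chga value was not tested.

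**Figure D3:**
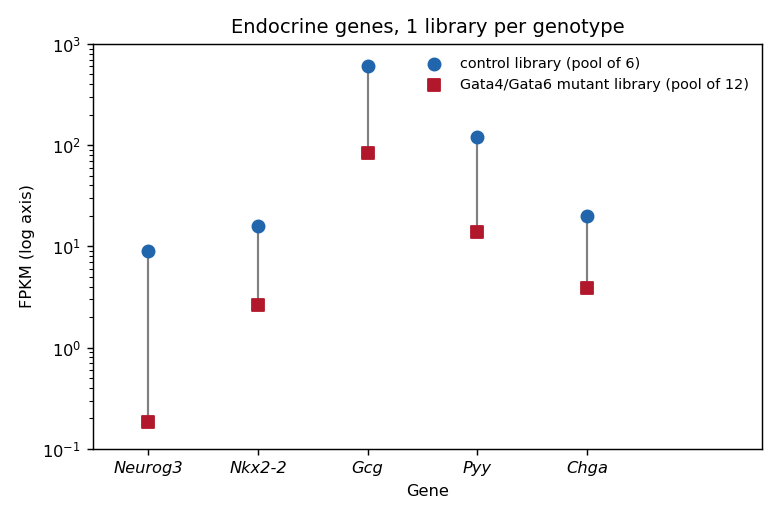
FPKM of the 5 endocrine genes on a log axis in the control library (circles, pool of 6 pancreata) and the Gata4/Gata6 mutant library (squares, pool of 12), with a line joining the values of a gene. The line is longest for Neurog3, from 9.06 to 0.186 FPKM, and shortest for Chga, from 19.9 to 3.91.

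Added together, the 5 genes came to 778 FPKM for control and 104 FPKM for mutant pancreas, a remainder of 13.3%. Gcg alone made up 78.6% of the control sum and 80.3% of the mutant sum, so the sum mostly repeats the Gcg value. Leaving Gcg out, the other 4 summed to 166 and 20.5 FPKM, a remainder of 12.3%. Within those 4, Pyy took 73.0% of the control sum and 67.1% of the mutant sum, and Chga took 12.0% and 19.1%. The Neurog3 share moved from 5.45% to 0.907%. In order of what remained in the mutant library, the genes ran from Neurog3 through Pyy, Gcg and Nkx2-2 to Chga.

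The rule of size, a log2(FPKM + 1) ratio of at least 1 in either direction with at least 1 FPKM in at least 1 library, placed 5 of 5 genes on the lower side. Over the whole table the same rule placed 45.2% of 250 genes there and 48.4% on the higher side. The lower share was 45.6% with a pseudocount of 0.1, with none and after centring, and 30.0% with a pseudocount of 5. It was 45.2% with no minimum, 35.6% with a minimum of 5 FPKM, 33.2% with 1 FPKM in both libraries, 14.8% at 4-fold and 26.4% at a q of at most 0.01. With 1 FPKM in both libraries 4 of the 5 genes counted, without Neurog3, and under each of the others all 5. As the genes were picked from this contrast, nothing is read from that count. Their median ratio was −2.86, against 0.87 over all genes of the table.

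**Figure D4:**
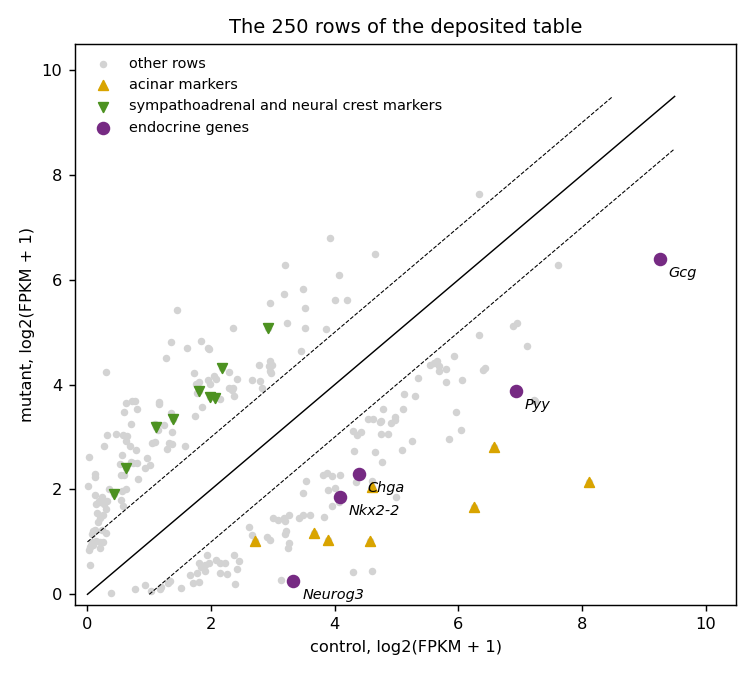
Control against mutant level, each as log2(FPKM + 1), for the 250 genes of the deposited table, with the endocrine genes, the acinar markers and the sympathoadrenal and neural crest markers marked. The solid line is equality and the dashed lines are a 2-fold difference; the 5 endocrine genes and 8 acinar markers lie below the lines, and the 9 neural markers above.

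The order of the q-values in the authors' deposited table followed the size of the plain fold change among the 5 genes, except that Gcg came first. The table holds only genes called changed, and its largest q-value is 0.0496. Small q-values were therefore fixed by the choice of genes, and they are given as a description and not as support. Gcg had the smallest q-value of the 5, at 4.41e-10, followed by Neurog3 at 1.47e-08 and Pyy at 4.39e-05. Nkx2-2, at 0.00191, and Chga, at 0.00278, had the largest. The deposited statistic was 7.26 in size for Gcg and 6.72 for Neurog3, although the plain log2 fold change was −2.88 for Gcg and −5.61 for Neurog3. Put differently, each unit of the statistic corresponds to a log2 change of 0.396 for Gcg, the most abundant gene, and of 0.834 for Neurog3, the least abundant. It was 0.598 for Pyy, 0.553 for Chga and 0.595 for Nkx2-2, which does not follow the order of these 3 by control level. In 247 of the 248 rows with a p-value above 0, that p-value was the 2-sided normal tail of the statistic to within 5%. These values compare 1 library with 1 library, so differences among embryos of a genotype do not enter them.

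The scale mattered most for the least abundant gene. Neurog3 went from −5.61 with no pseudocount, in the authors' deposited table, to −5.0 with 0.1 FPKM added and −1.44 with 5 added. Gcg moved only from −2.88 to −2.81 over the same range. With 5 FPKM added, Gcg had the largest ratio in size and Neurog3 the smallest, so the order of the 5 genes by log2 ratio is not fixed.

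**Figure D5:**
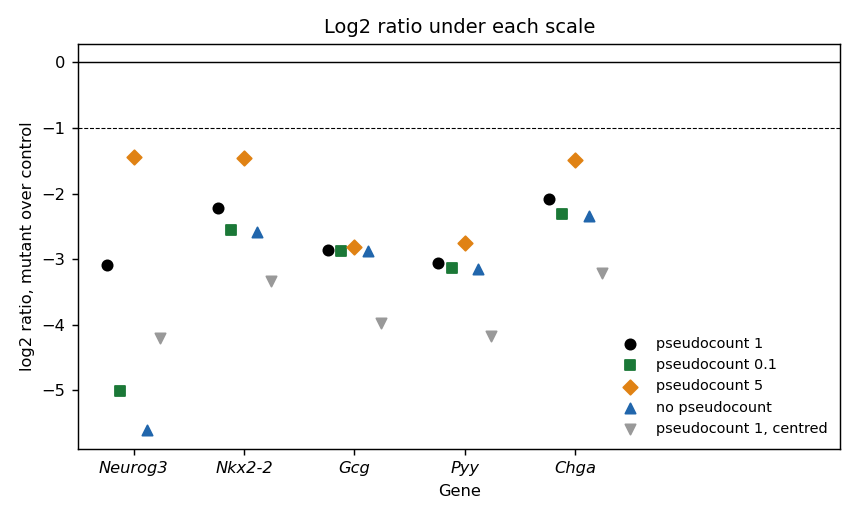
Log2 ratio of mutant over control for each gene with pseudocounts of 1, 0.1 and 5 FPKM, with no pseudocount, and with a pseudocount of 1 after centring on the table median. All 25 points lie below the dashed line at −1; those of Neurog3 spread from −5.61 to −1.44, and those of Gcg from −3.98 to −2.81.

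The rest of the endocrine programme is mostly outside the table. Lists of endocrine transcription factors (26 genes), islet and gut hormones (15) and hormone processing and granule genes (24) together hold 65 genes, and apart from the 5 described here none of the other 60 is present. The 60 include Neurod1, Pax6, Isl1 and Insm1 among the factors, Ins1, Ins2, Sst, Ppy and Ghrl among the hormones, and Pcsk1, Pcsk2 and Chgb among the processing and granule genes. Of 19 genes of the endocrine progenitor or known targets of NEUROG3, only Neurog3 and Nkx2-2 are present. Genes outside the table were either not tested or not called by the authors, and their levels were not analysed here. For that reason the make-up of the early endocrine cells by hormone, and so the first-wave label, could not be checked. None of 8 annotated genes for receptors of proglucagon peptides and peptide YY and for a peptidase that cuts them, and none of 8 genes of nutrient sensing, is present.

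Among 20 factors known to act upstream of Neurog3, 2 are in the table, and they differ in direction. Prox1, a homeodomain factor of the early pancreatic epithelium, was lower, with 10.2 FPKM in control and 2.81 FPKM in mutant pancreas. Foxa1, a forkhead factor of the endoderm, was higher, with 0.711 FPKM in control and 12.0 FPKM in mutant pancreas. Pdx1, Sox9, Onecut1, Hes1 and the targeted Gata4 and Gata6 are outside the table, so the targeting could not be checked there.

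Markers of neighbouring cell types also differed, and their part in the endocrine values was not tested. Of 17 annotated acinar markers, 8 were in the table and all 8 were lower, with a summed level of 524 FPKM for the control pool and 19.0 FPKM for the mutant pool. Their remainders ran from 1.23% for Cpa1, a carboxypeptidase, to 18.2% for Cel, a lipase. The remainders of the 5 endocrine genes, from 2.05% to 19.7%, fall in much the same range, while the summed acinar remainder of 3.63% was below the endocrine 13.3%. Of 16 mesenchyme markers, 7 were present, 3 lower and 4 higher. Their summed level was 98.7 FPKM for the control pool and 221 FPKM for the mutant pool. Of 10 liver markers 3 were present and lower, with a summed level of 296 FPKM for the control pool and 113 FPKM for the mutant pool.

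For each endocrine gene, the gene with the closest levels was looked up in the rest of the table. Closeness was the distance between 2 genes in log2(FPKM + 1) over the 2 libraries, and it describes levels only. Closest to Neurog3 was Prrx1, a homeobox gene of mesenchyme, at 7.77 and 0.208 FPKM, and closest to Nkx2-2 was Wnt5a, a secreted signal, at 15.7 and 2.39. For Pyy it was Spp1, a secreted matrix protein, at 148 and 12.1, and for Chga it was Tmem200a at 19.4 and 3.41. Gcg had no close neighbour: the nearest, the lipid carrier gene Apoe, lay at 194 and 76.7 FPKM, a distance of 1.66 against 0.10 to 0.33 for the other 4.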

How the data were processed

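The authors' alignment used TopHat 2.0.4 on mm9, with 4 mismatches and up to 10 hits per read, per the labels. CASAVA 1.8.2, Cufflinks and DESeq are further tools in the submitters' processing notes. The sources used here do not state the transcript annotation or any use of strand. The authors deposited FPKM per library for each gene called changed, with a log2 fold change (the plain ratio of the FPKM values, within 0.001 in all 250 rows), a test statistic (a score of opposite sign), a p-value and a q-value. Depth is known only as over 20000000 mapped reads, per the labels.

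From these, a log2 ratio of mutant over control was taken after adding 1 FPKM to each value, and it understates changes of low genes. No test was run, with 1 library per genotype. The members and lists were chosen with earlier results of these data known. Named genes are the 5 members, list genes in the table, the nearest gene to each member outside predicted genes, and overlapping genes, although some genes of the lists are not reported here by their names; further names complete a list or were chosen after values were seen. Alternatives were the pseudocount, centring, FPKM minimum, fold limit, q limit and promoter window. Calculations used Python 3.11.15, pandas 2.3.3, numpy 2.4.6 and scipy 1.17.1. The log2 ratio was tested on mutant values simulated from the control levels, and the search for GATA words on simulated sequences. The other steps were not tested in this way.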

Additional observations from a re-analysis of the deposited data

How the results depend on the processing

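The 5 genes were picked as lower from this contrast, so nothing is read from how many of them stay lower. By the rule of size all 5 were on the lower side with a pseudocount of 0.1 or 5, without one and with centring. They were also there with no minimum or one of 5 FPKM, at 4-fold and at a q of at most 0.01. Under these settings the share of the whole table on the lower side ran from 14.8% to 45.6%. With 1 FPKM required in both libraries Neurog3 dropped out and 4 were counted, and 4 were counted without Nkx2-2, an alternative chosen after seeing the data. Their median log2 ratio of −2.86 became −2.88 with a pseudocount of 0.1 and in the authors' deposited log2 fold change, −1.48 with a pseudocount of 5, −3.98 after centring (which subtracts 1.11, the median of the table's genes past the FPKM minimum), −2.54 with 1 FPKM in both libraries and −2.96 without Nkx2-2. Over the table the 113 lower genes became 75 with a pseudocount of 5, 37 at 4-fold and 66 at a q of at most 0.01. These moves follow from how the alternatives are built: they shrink low ratios, shift all ratios alike, remove genes or set a stricter limit. In the 250 bases before the start alone, the share of windows with a GATA word was 26.5%, with an E-box 66.2%, with TATAAA 12.4% and with CCAAT 33.8%, as the shorter window holds fewer words. No paired analysis was possible because there is 1 library per genotype. No library could be left out for the same reason, and the unknown depth leaves the lowest value, that of Neurog3 in the mutant, without an interval.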
